A study of Capsicum annuum with 5 samples.

Results

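The miRNAs described here are those annotated in pepper as miR482, miR5300 and miR1507, the listed families whose relatives in tomato or legumes are known to silence plant disease resistance genes. They were taken by name from the deposited annotation: the precursors named can-miR482 (4 hairpins), can-miR5300 (1) and can-miR1507 (1), and the mature sequences assigned to them. This gave 6 of the 165 distinct hairpins and 12 of the 314 mature sequences. Each hairpin listed 1 sequence from each arm.

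The samples were 5 small RNA libraries of Capsicum annuum, inbred line Zunla 1, with 1 library per tissue and no treatment recorded. Developing roots, developing stems and mature leaves came from greenhouse plants at full bloom, grown in soil at 22 °C with 16 h of light, and the flowers were fully open. The fruit is called mature green by its sample label and turning red, 30 days after pollination, by the series text, so its stage is uncertain. Total RNA was the starting material, and whether the plants carried any infection is not recorded. No mRNA markers were measured, so the tissue labels could not be checked against marker genes.

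NLR proteins are intracellular immune receptors that recognise products of pathogens. Plant genomes carry many NLR genes, and in Solanaceae and legumes miRNAs of 22 nt hold them in check. Some miRNAs of this length, but not all, pair with the stretch of mRNA that codes for the P-loop. The P-loop is the conserved nucleotide-binding loop of the receptor. A miRNA of this length can also set off production of secondary small RNAs in phase from the cleaved transcript, so that 1 miRNA can act on many related receptors. The strand loaded into ARGONAUTE is called the guide, and its partner in the duplex is the passenger strand.

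The leading arm of each hairpin is shown first, because these sequences carry the likeness between the 3 families. They are written 5′ to 3′ as DNA letters, as deposited, with bases 2 to 8, the seed, in capitals. For miR482a, miR482b, miR482c and miR1507 this is the 3′ arm, the guide side of these families in other plants. For miR5300 the 5′ arm is taken as the guide from background knowledge of tomato, whose sequence was not compared here. This choice was made after the listing had been seen, in place of the 3′ arm first planned. For miR482d the arm with more tags was taken. Over the 5 libraries together the leading arm also had more tags in miR482a, miR482c and miR5300, but fewer in miR482b and miR1507.
miR482a-3p: tTTCCAATtccacccattccta
miR482b-3p: tCTTGCCTacaccgcccatgcc
miR482c-3p: cTACCAACtccacccattcctg
miR482d-3p: cATCGATGacattggcaaggag
miR5300-5p: tTCCCAGTccaggcattccaac
miR1507-3p: tCTTACCGatacctcccattcc

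All 6 leading arms were 22 nt long. Counting both arms, 7 of the 12 member sequences had this length (58.3%), against 32 of the 233 distinct mature sequences of other families (13.7%). Of the opposite arms, those of miR482 and miR1507 were 21 nt long and that of miR5300 was 22 nt. The leading arms of miR482a, miR482b, miR5300 and miR1507 began with T (U in the RNA), and those of miR482c and miR482d with C. No 2 of the 6 shared a seed, and none of the 233 other sequences had the seed of any of the 12 member sequences. The seeds of miR482a-3p and miR482c-3p differed at 2 bases, as did those of miR482a-3p and miR5300-5p and those of miR482b-3p and miR1507-3p. In the other pairs the seeds differed at 3 to 7 bases. miR482a-3p and miR482c-3p shared the 13 nt TCCACCCATTCCT and were identical at 18 of 22 aligned bases (81.8%). miR1507-3p was closest to miR482b-3p, with 17 of 22 bases identical (77.3%), and shared the run CCCATTCC with miR482a-3p and miR482c-3p. miR5300-5p matched miR482a-3p at 16 of 23 aligned positions (69.6%).

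The reverse complements of these arms were searched for the letters GGNATGGGNGGNNNNGGN, a pattern of glycine codons (GGN) around a methionine codon (ATG), as in the P-loop coding sequence. The pattern was written after the sequences had been read, so its presence in them is a description. On both strands of the 245 distinct listed sequences it occurred in 5 (2.04%), always in the reverse complement. These were miR482a-3p, miR482b-3p, miR482c-3p, miR1507-3p and miR5301-3p, a sequence of another family whose counts follow the arm comparison. With the third codon free, as GGNATGNNNGGNNNNGGN, the pattern was found in 1 more, miR5300-5p (6 of 245, 2.45%). It overlaps the first pattern, and every sequence holding the first also holds the second. miR482d-3p held neither pattern.

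miR482d thus stood apart from the hairpins that share its number. Its leading arm was identical to those of the other 5 members at 22.7% to 40.9% of aligned bases, with shared runs of 3 or 4 nt, whereas miR482a-3p, miR482b-3p and miR482c-3p were 58.3% to 81.8% identical to each other. It is called miR482d below only because that is its listed name. Which NLR or other transcripts the 6 sequences pair with in pepper was not tested, since no transcript sequences were used, and no miRNA sequences of other species were at hand to compare the names with.

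miR482a and miR482c lay close together, 36.1 kb apart on the minus strand of chromosome 10, at chr10:41974898-41974994 and chr10:42011132-42011219. Their precursors were 97 and 88 nt long and identical at 64 of 97 aligned positions (66.0%). They are printed from the RNA's 5′ end with both mature arms in capitals, because they show where the shared bases sit.
miR482a: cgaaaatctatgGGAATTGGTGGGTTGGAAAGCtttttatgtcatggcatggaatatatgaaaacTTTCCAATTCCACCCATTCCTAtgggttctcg
miR482c: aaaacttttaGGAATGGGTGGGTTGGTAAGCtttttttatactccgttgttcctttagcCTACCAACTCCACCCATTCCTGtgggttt

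In the deposited structures of all 6 hairpins, the 2 arms formed a duplex with an overhang of 2 nt at the 3′ end of either strand, the geometry left by a Dicer enzyme. The overhangs of the other listed hairpins were not measured, so whether this is particular to these 6 was not tested. The duplexes held between 16 base pairs (miR5300) and 18 (the miR482 hairpins). miR482b (205 nt, plus strand, chr6:58555754-58555958) and miR5300 (223 nt, plus strand, chr12:10393998-10394220) were long, with 107 and 169 nt between the arms, while the median of all 165 precursors was 101 nt. miR482d had 106 nt on the plus strand at chr9:235022696-235022801. miR1507 had 120 nt at chr4:54641076-54641195, 73.7 kb from miR5301 on the same strand, its nearest listed hairpin. The predicted folding energies were between -48.1 (miR482c) and -36.2 kcal/mol (miR482d) per 100 nt, and the median of all hairpins was -45.6. The sources used here do not give the genome build, and gene annotation around the hairpins was not analysed.

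The counts summed over all listed mature sequences were between 552707 (root) and 2395834 (flower). They cover annotated miRNAs, and the sequencing depth is unknown. A hairpin's total in a library was 0 in 316 of 825 cases, between 1 and 4 in only 1 case and from 5 to 8 in 39, so small totals are nearly missing from the listing, and a 0 is given here as listed at 0. Levels are given as normalised tags, that is tags per 1000000 listed tags of the library. Their 95% intervals (Poisson for tags, exact binomial for shares and folds) cover counting error only, and since each tissue has 1 library, differences could not be set against a spread between replicates. Root-over-tissue folds are also given as a range over 4 scalings: by listed totals, by median-of-ratios size factors, by totals without miR166, and by totals with each sequence counted once.

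The guide sequences with most tags were highest in root. miR5300-5p had 2497 tags in root and 1158 in stem, with leaf at 378, flower at 852 and fruit at 415. As normalised tags root was at 4518, stem at 1090, leaf at 290.1, flower at 356 and fruit at 363. Root stood 4.14-fold above stem (3.86 to 4.45, with 2.09 to 4.14 across scalings) and 15.6-fold above leaf (14.0 to 17.4, with 14.2 to 17.5 across scalings). It was also 12.7-fold above flower (3.60 to 12.7 across scalings) and 12.4-fold above fruit (6.28 to 12.4). Root was thus the highest tissue and leaf the lowest under every scaling, while the order of stem, flower and fruit changed.

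miR482a-3p followed with 1061 tags in root and 453 in stem, with leaf at 115, flower at 112 and fruit at 431. It reached 1920 normalised tags in root, next to 426 in stem and 88.3 in leaf, with 46.7 in flower and 377 in fruit. The root value was 21.7-fold that of leaf (17.9 to 26.6, with 19.8 to 24.5 across scalings) and 4.50-fold that of stem (4.03 to 5.04, with 2.27 to 4.50 across scalings). The intervals of stem (388 to 468) and fruit (342 to 414) overlapped. The lowest tissue was flower except with median-of-ratios factors, where it was leaf.

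miR482b-3p was more even. It had 469 tags in root and 386 in stem, with leaf at 145, flower at 394 and fruit at 187, or 849, 363, 111, 164 and 164 normalised tags in that order. Root was 2.34-fold above stem (2.04 to 2.68), but 1.18-fold with totals without miR166 (1.03 to 1.35). The root lead over leaf was 7.62-fold (6.32 to 9.25, with 6.94 to 8.58 across scalings), and leaf was the lowest tissue throughout. Over flower it was 5.16-fold, but 1.46-fold with median-of-ratios factors, and over fruit 5.19-fold, with 2.62 to 5.19 across scalings.

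The remaining leading arms did not share this order. miR482c-3p had 31 tags in leaf but was at 0 in the root, stem, flower and fruit listings, though its hairpin is the neighbour of miR482a. miR482d-3p had 325 tags in flower, 10 in root, 39 in stem, 21 in fruit and was listed at 0 in leaf. Its flower level of 136 normalised tags was 3.69-fold the stem level of 36.7 (2.65 to 5.29, with 1.996 to 11.6 across scalings). The opposite arm of miR482d was listed in flower alone, with 25 tags.

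miR1507 was rare. The 3′ arm, which holds the P-loop pattern, had 9 tags in stem, 5 in flower and 1 in root, and was listed at 0 in leaf and fruit. The 5′ arm had more, with 16 tags in root, 18 in stem, 7 in leaf and 9 in flower, and was listed at 0 in fruit. Summed over arms, root exceeded stem 1.21-fold in normalised tags, with an interval of 0.619 to 2.30 that spans equality, and the direction reversed under 2 of the other scalings (0.611-fold and 0.867-fold). The tags do not show which of the 2 tissues held more.

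**Figure D1:**
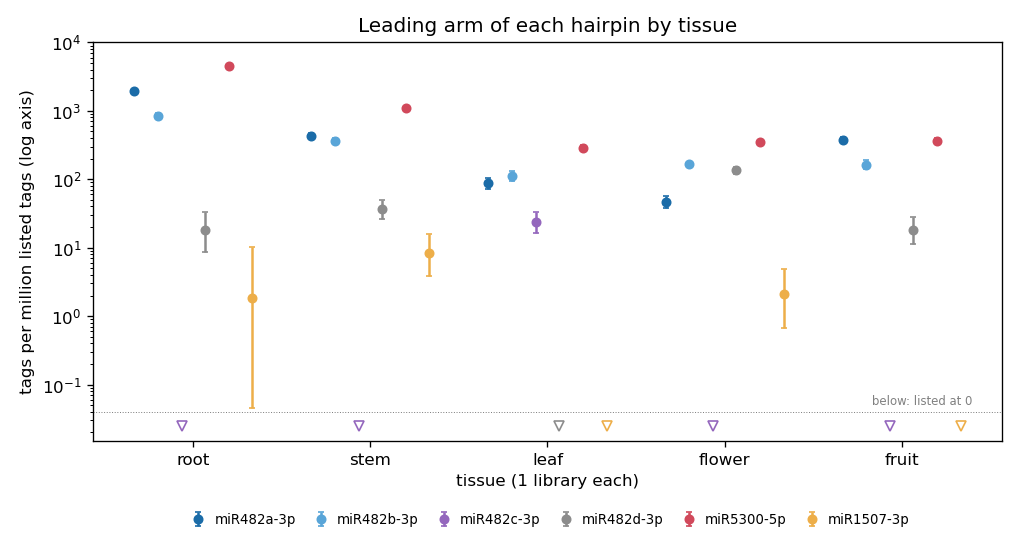
Level of the leading arm of each hairpin in normalised tags (tags per 1000000 listed tags, log axis) by tissue, 1 library each; bars are 95% Poisson intervals of the tag count, and open triangles mark sequences listed at 0. miR5300-5p reaches 4518 and miR482a-3p 1920 in root, while miR482c-3p appears in leaf alone and miR482d-3p is highest in flower at 136.

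The root lead has to be read against all listed sequences, because many of them had more normalised tags in root than elsewhere. Of the 5 guide sequences, the leading arms other than miR482d-3p, 2 (miR482a-3p and miR5300-5p) were at least 4-fold higher in root than in stem, and 24.5% of the 159 distinct sequences with at least 10 tags passed the same fold. Over leaf 4 of the 5 passed, against 21.4% of all. Over flower 3 passed and over fruit 4, against 37.7% and 38.4%. miR1507-3p is counted over leaf and fruit on 1 root tag against values listed at 0, so its calls could not fail under any scaling. The calls of miR482a-3p, miR482b-3p and miR5300-5p over leaf held under all 4 scalings, but many of the others did not. Over stem 1 guide passed with median-of-ratios factors (miR482a-3p, against 22.6% of all sequences) and 0 with totals without miR166 or with each sequence counted once (15.7% and 20.1%). Over flower the count fell to 1 with median-of-ratios factors (22.6%) and to 2 with each sequence counted once (32.7%). Over fruit it was 2 under each of the other scalings (28.9% to 32.1%). There miR482a-3p and miR482b-3p dropped out, and miR5300-5p and miR1507-3p were left. Root was the highest tissue under all 4 scalings for miR482a-3p, miR482b-3p and miR5300-5p, 3 of the 6 leading arms, and for 18.9% of the distinct sequences.

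By family, with both arms summed, the miR5300 lead over leaf stood out more than those over flower and fruit. Its log2 ratio of root over leaf was 3.96, where the median of the 39 families with tags in both libraries was 0.73. Root over flower was 3.54 for miR5300 and 2.99 for miR482, where the median was 2.39, and root over stem was 2.05 and 1.52, where the median was 0.87. For miR482 the ratio of root over leaf was the median itself, 0.73. That value sums opposite trends of the arms, as the 3′ arms alone, with each sequence counted once in the totals, gave 12.4-fold (10.9 to 14.1). At least 4-fold higher in root than in stem were 19.3% of the 57 families with 10 or more tags, 21.1% than in leaf, 43.9% than in flower and 38.6% than in fruit. Root was the highest tissue by listed totals in 36.8% of these 57 families and under all 4 scalings in 22.8%, with miR482 and miR5300 among both and miR1507 among the first alone. miR5300 passed all 4 fold comparisons by listed totals. Its call over stem (4.14-fold) was lost under the 3 other scalings, at 3.70, 2.09 and 2.97-fold, and its call over flower (11.7-fold) was lost with median-of-ratios factors, at 3.30-fold. The calls over leaf and fruit held under all 4.

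**Figure D2:**
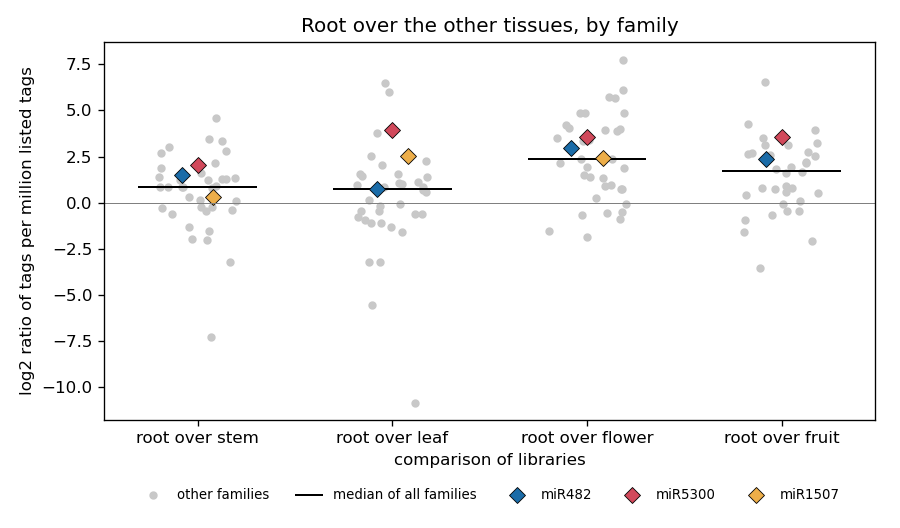
Log2 ratio of normalised tags in root over stem, leaf, flower and fruit for families with tags in both libraries; grey points are other families, diamonds the 3 families described and black lines the median of all families. miR5300 lies above the median in all 4 comparisons (3.96 against 0.73 over leaf), and miR482 lies on it over leaf; miR1507 has no value over fruit, where it was listed at 0.

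The make-up of the guides within a library does not depend on scaling, and it changed between tissues. miR5300-5p made up 62.0% of the guide tags of the 5 hairpins other than miR482d in root (60.5 to 63.5), 57.7% in stem, 56.5% in leaf and 62.5% in flower, but 40.2% in fruit (37.2 to 43.2). The balance of miR482a-3p to miR482b-3p also moved. There were 2.26 miR482a-3p tags per miR482b-3p tag in root (2.03 to 2.53) and 2.30 in fruit (1.94 to 2.75), next to 1.17 in stem (1.02 to 1.35) and 0.793 in leaf (0.615 to 1.02). In flower there were 0.284 (0.228 to 0.351). Flower thus had mostly miR482b-3p where root and fruit had mostly miR482a-3p, a difference beyond counting error, with no replicate to set it against. There were 7.61 miR5300-5p tags per miR482a-3p tag in flower (6.24 to 9.35) and 0.963 in fruit (0.839 to 1.10), a span of like size.

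**Figure D3:**
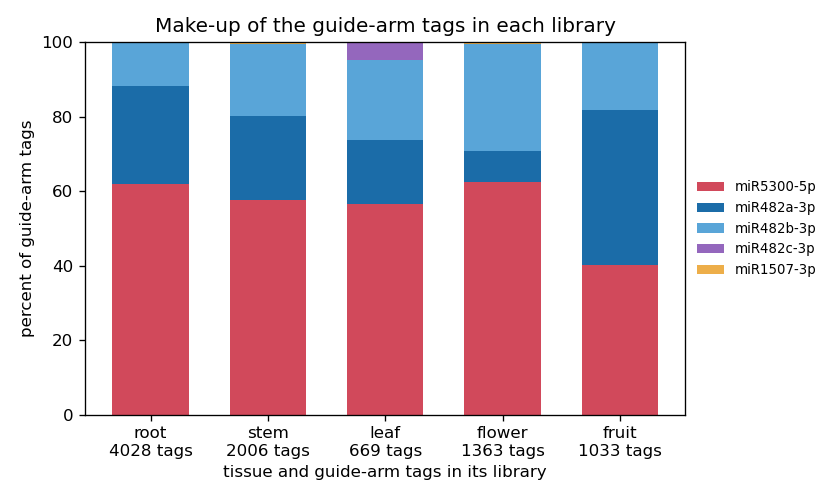
Percent of the guide-arm tags of miR5300, miR482a, miR482b, miR482c and miR1507 in each library, with the number of guide tags under each tissue. miR5300-5p holds 56.5% to 62.5% in root, stem, leaf and flower and 40.2% in fruit, and miR482a-3p holds 41.7% in fruit and 8.22% in flower.

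The members took very unequal shares of the 22 nt miRNA tags of the tissues. With each distinct sequence counted once, they held 39.7% of the tags of listed 22 nt sequences in root (38.7 to 40.7), 6.27% in stem, 2.32% in leaf (2.15 to 2.50), 67.6% in flower (65.8 to 69.4) and 36.5% in fruit. In root, stem, leaf and fruit the most abundant 22 nt sequence was miR4376-5p, with 5403, 29928, 27784 and 1713 tags in that order. In flower it was miR5300-5p with 852 tags. Sequences of 22 nt made up 0.385% of the tags in flower, so the large share there is a share of few tags.

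In leaf the arms of miR482a and miR482b were turned round, but not those of miR482c. For miR482a, miR482b and miR482c the 5′ arms are the passenger side in other plants, and ARGONAUTE loading was not measured here. The 5′ arms had 2018 of the 2309 miR482 tags in leaf, 87.4% (86.0 to 88.7). Their share was 5.06% in root, 19.2% in stem, 6.31% in flower and 3.47% in fruit. The arms were assigned by where each sequence lies in its hairpin. The 5′ sequences that carry this are shown with bases 2 to 8 in capitals.
miR482a-5p: gGAATTGGtgggttggaaagc
miR482b-5p: cGTGAGTGgtgtggtaagata

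miR482b-5p made most of the difference. It had 1798 tags in leaf, 82 in root, 208 in stem and 23 in fruit, and was listed at 0 in flower. Its normalised tags were 1380 in leaf, against 148 in root and 196 in stem. Leaf was 7.05-fold above stem (6.10 to 8.18, with 3.91 to 7.05 across scalings). Of all miR482b tags the 5′ arm held 92.5% in leaf (91.3 to 93.7), 14.9% in root (12.0 to 18.1), 35.0% in stem (31.2 to 39.0) and 11.0% in fruit (7.07 to 16.0).

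miR482a moved the same way. Its 5′ arm had 216 tags in leaf and 31 in flower and was listed at 0 in root, stem and fruit, although its 3′ arm had 1061 tags in root. It held 65.3% of the hairpin's tags in leaf (59.9 to 70.4) and 21.7% in flower (15.2 to 29.3). The leaf value of miR482 summed over arms therefore rested on 5′ arms, while miR482a-3p and miR482b-3p had 115 and 145 tags there.

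The other hairpins showed no such turn, or could not be compared for lack of tags. miR482c, with 35 tags in leaf alone, had 4 of them on the 5′ arm (11.4%, 3.20 to 26.7). Most of its leaf tags were thus on the 3′ arm, and no other tissue had tags to compare. In miR5300 the 5′ arm, here the guide, held all tags in leaf, root and stem. Its 3′ arm had 77 tags in flower, 8.29% (6.60 to 10.3), and 21 in fruit, 4.82% (3.01 to 7.27). miR482d was listed at 0 in leaf. In miR1507 the arm without the P-loop pattern had 7 of 7 tags in leaf, 16 of 17 in root, 18 of 27 in stem and 9 of 14 in flower, too few to order the tissues.

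**Figure D4:**
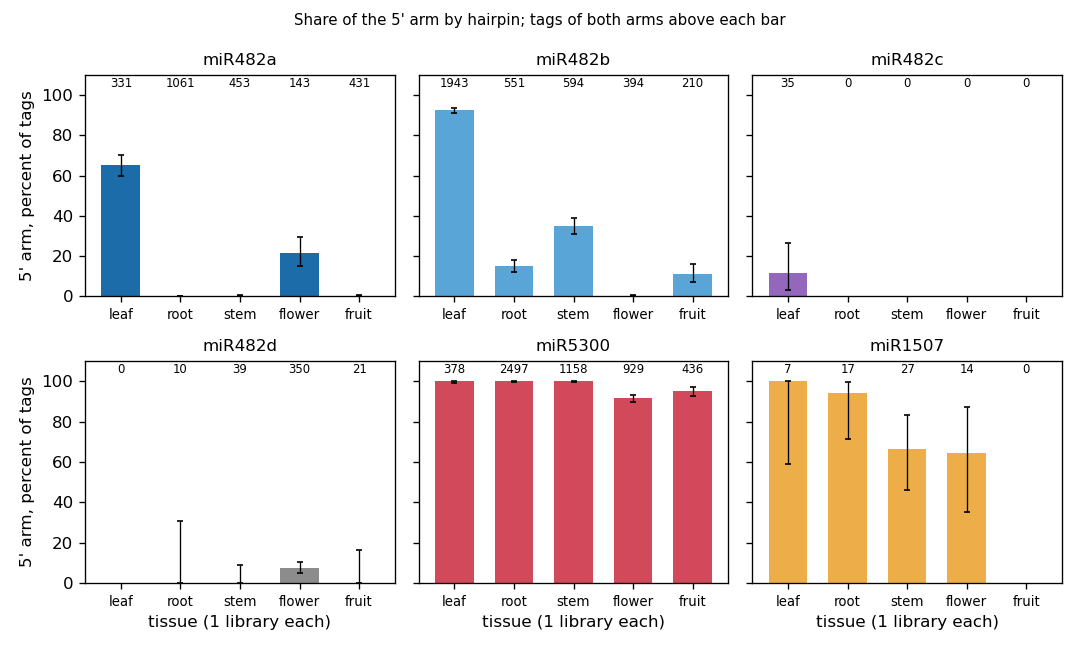
Percent of each hairpin's tags that came from the 5′ arm, by tissue, with 95% Clopper-Pearson intervals; numbers above the bars are the tags of both arms, and a tissue with 0 tags has no bar. In miR482a and miR482b the leaf bar stands at 65.3% and 92.5%, above all other tissues.

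Many other hairpins also had a higher share of their lesser arm in leaf, as that arm was defined here. Leaf was left out of the choice of that arm, which by itself favours a higher share in leaf. The choice was not repeated with another tissue left out, so a shift particular to leaf was not tested. All hairpins with at least 20 tags in both libraries and both arms listed were compared, and the lesser arm was taken as the one with fewer tags in root, stem, flower and fruit together, a measure added after the values had been seen. Its share was higher in leaf than in root in 42 of 65 hairpins, lower in 16 and equal in 7, with a median difference of 0.12 percentage points. Hairpins that list the same sequence repeat its tags, and miR167a and miR167d, for example, had equal counts. The hairpins are therefore not independent of each other. Against stem it was higher in 43 of 67, against flower in 39 of 68 and against fruit in 47 of 66. Differences of 10 or more points towards the lesser arm in leaf were found in 14, 17, 18 and 19 hairpins against root, stem, flower and fruit.

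Differences of 50 or more points were fewer, and all of them were towards the lesser arm in leaf. A fall of 50 points would need that arm to hold at least 50% in the other tissue. The choice of the lesser arm thus largely set this direction. Against root they were found in 3 of 65 hairpins (4.62%), miR482a (65.3 points), miR482b (77.7 points) and miR171c. In miR171c it was the 3′ arm that gained, with 65.3% in leaf and 3.67% in root. Against stem there were 4 of 67 (5.97%), the same 3 and the candidate miRC7. Against flower there were 3 of 68 (4.41%), miR482b, miR171c and miR171f, while miR482a differed by 43.6 points. Against fruit there were 4 of 66 (6.06%), miR482a, miR482b, miR171f and miRC7. Gains of the 5′ arm alone reached 50 points in 3.08%, 4.48%, 2.94% and 6.06% of hairpins against root, stem, flower and fruit. Smaller shifts included miR162b, whose 5′ arm held 50.5% in leaf and 14.0% in root, and miR397a, whose 3′ arm held 25.3% in leaf and was listed at 0 in root. The turn in miR482a and miR482b was thus among the largest of these hairpins, but it was not theirs alone. The third member with enough tags, miR5300, differed by 8.29 points or less. These hairpins were compared in 1 library per tissue, so a difference between library preparations and one between tissues cannot be told apart.

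**Figure D5:**
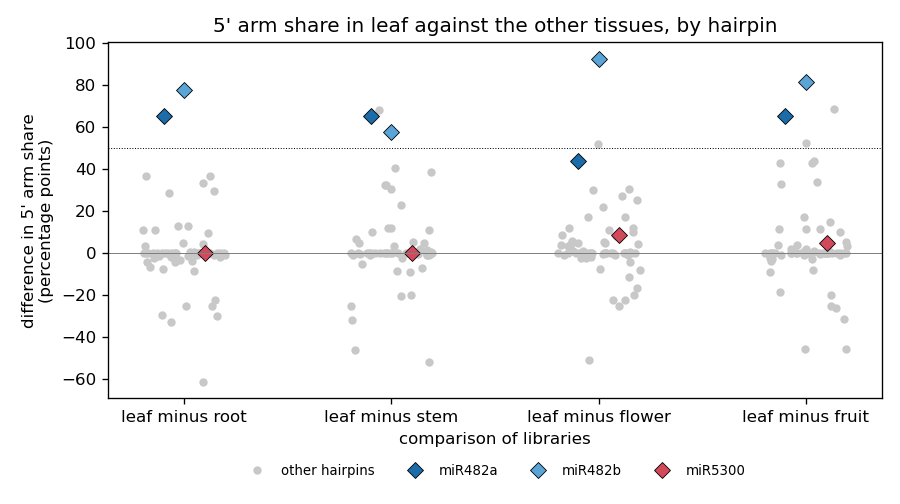
Difference in 5′ arm share, in percentage points, between leaf and each other tissue for hairpins with at least 20 tags in both libraries; grey points are other hairpins, diamonds are miR482a, miR482b and miR5300, and the dotted line marks 50 points. Points far below 0 are hairpins whose 3′ arm gained in leaf, such as miR171c. miR482b lies above the line in all 4 comparisons and miR482a in 3 of them, with 43.6 points against flower.

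miR5301-3p, the sequence outside the 3 names whose complement also held the P-loop pattern, was highest in root under all 4 scalings, like miR482a-3p, miR482b-3p and miR5300-5p. It is 22 nt long and was identical to miR482b-3p at 18 of 22 bases (81.8%).
miR5301-3p: tCTTTCCTactcctcccatacc
It had 443 tags in root and 416 in stem, with leaf at 221, flower at 312 and fruit at 96, or 802, 392, 169.6, 130.2 and 84.0 normalised tags in that order. Root was 4.72-fold above leaf (4.01 to 5.58, with 4.30 to 5.32 across scalings), 2.05-fold above stem (1.03 to 2.05), 6.15-fold above flower (1.74 to 6.15) and 9.54-fold above fruit (4.82 to 9.54). Its lowest tissue by listed totals was fruit, where that of miR5300-5p and miR482b-3p was leaf. Its 5′ arm went the other way, with 86337 tags in leaf and 3459 in root, and that of miR482b also had more in leaf. In miR5301, unlike miR482b, the 5′ arm held most tags in every tissue, with 99.7% in leaf and 88.6% in root.

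The families whose distribution over the 5 tissues was most like that of the members were found from each family's shares of its summed normalised values, as the summed absolute difference divided by 2. For miR482 they were miR172 (5.20 percentage points apart), miR3627 (10.7) and miR162 (10.8), while the median family lay 39.4 points away. For miR5300 they were miR319 (13.6), miRC12 (14.9) and miRC3 (16.8), with a median of 50.4. For miR1507 they were miRC8 (16.9), miRC28 (17.2) and miR403 (18.0), with a median of 44.3. These distances compare 5 values of 1 library each.

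Of the 10 other families looked for as regulators of NLR genes (miR2109, miR2118, miR6019, miR6020 and the run from miR6022 to miR6027), 0 were listed under those numbers. Since names follow the annotation, related sequences may be listed under other numbers.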

How the data were processed

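The authors deposited 1 annotation in GFF version 3, written by the plant setting of MIREAP, per the file headers. Each mature sequence carries a whole-number tag count per library in the deposited attribute text, with no scaling recorded. The sources used here do not give the aligner, read trimming, genome build or the rule for tags with several matches. Repeated precursors (176 lines) were kept once. None of the 12 member sequences was listed at a second hairpin.

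Mature positions and arms were computed from the sequence within its precursor. Of the member lines 6 gave a position that did not match, and 2, both of miR482c, were typed on the opposite arm. Counts were divided by the listed total. Folds are ratios of these, with intervals from the exact binomial split. Median-of-ratios factors used 31 families. Where a sequence stands at several hairpins, its highest count was taken for counting once. Alignments used Biopython 1.88 (match 1, mismatch -1, gap -3 and -1) and folding energies RNAfold 2.7.2. Members, lists and comparisons were chosen with earlier results of these data known. Every member is named. The 3 nearest families were named by rule.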

Additional observations from a re-analysis of the deposited data

How the results depend on the processing

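The miR482 ratio of root over leaf, 1.66 as reported, was 1.86 with median-of-ratios factors, 1.51 with totals without miR166 and 12.4 with 3′ arms only and each sequence counted once, and 12.4 with 3′ arms without miR482d by listed totals. The miR5300 ratio of root over stem, 4.14, was 3.70, 2.09 and, with each sequence counted once, 2.97 (also 2.97 for the 5′ arm alone under that counting). The 3′ arm, the arm planned for this, was listed at 0 in root and stem and gave no value. The 5′ arm, like the settings without miR482d and the arms as typed, was chosen after seeing the data. The miR1507 ratio of root over stem, 1.21, reversed to 0.611 with totals without miR166, 0.867 with each sequence counted once and 0.153 (0.00349 to 1.10) with the 3′ arm alone under that counting. The leaf share of miR482 5′ arms was 88.6% with arms as typed. Families at least 4-fold higher in root than in stem numbered 11, but 20 at a fold of 2 and 7 without miR166. Those over flower numbered 25, but 16 with median-of-ratios factors, and those over fruit 22, but 14 with these factors and 14 without miR166. Other count minimums, and 0 taken as 4 tags, kept all 4 counts within 1.5 times. No paired analysis was possible because each tissue has 1 library. The values of miR1507, miR482c and the opposite arms listed at 0 rest on few tags. Whether depth or the near absence of small totals from the listing sets these was not tested.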

Other observations

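Families that target parts of the small RNA pathway, or trigger phased small RNAs, were listed too, and 3 of the 4 had most normalised tags in root, as had 36.8% of the 57 families with 10 or more tags, with 1 library each. Under all 4 scalings 1 of them (miR162) stayed highest in root, as did 22.8% of the 57. miR168, which targets AGO1, had 115560 normalised tags in root and 63859 in leaf, with stem at 38536, flower at 41489 and fruit at 37074, but was highest in flower with median-of-ratios factors. miR162, which targets DCL1, had 7170 in root and 2920 in stem. miR403, which targets AGO2, had 351 tags in root and 372 in stem, with leaf at 13 and flower at 7, and was listed at 0 in fruit, and stem was highest with totals without miR166. miR390, the trigger of the TAS3 phased small RNAs, differed from these, with 1196 normalised tags in root against 1835 in stem, with leaf at 1833, and was highest in flower with median-of-ratios factors.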
